A study of Schizosaccharomyces pombe with 6 samples.

Results

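The genes described here encode enzymes that make amino acids in the fission yeast Schizosaccharomyces pombe. They were chosen by name: probe sets annotated with 1 S. pombe gene whose symbol begins with arg, his, ilv, leu, lys, trp, aro, met, ser or thr, followed by 1 or 2 digits. This gave 36 of the 2896 S. pombe genes tested, and each of the 36 had 1 probe set. By the first letters of the symbol and the known steps, 8 belong to arginine, 6 to histidine, 5 to leucine, isoleucine and valine, 5 to lysine, 5 to the aromatic amino acids and 7 to methionine and serine. One of them, lys7, is no synthesis enzyme itself but attaches the cofactor that activates one. A further 19 genes of the reference annotation match the same name rule, among them his6, lys9, met17 and thr1, and were not analysed here. All 36 lay above the background of their array on all 6 arrays, as did 97.5% of all genes, where background is the 95th percentile of the S. cerevisiae probe sets that share the array.

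Both groups were mixtures in equal parts of the h+ strain YHL6381 and the h- strain SPQ-01, which had been raised separately at 30 °C in YEPD until the OD600 reached 5.0. The joined cells then spent 90 min in new medium, either YEPD or YEPME, and the study asks what differs when cells of opposite mating type flocculate. There were 3 arrays per medium, numbered as biological replicates 1, 2 and 3, and the labels give no further genotype, so whether either strain carries a mutated copy of a gene named here is unknown. The composition of YEPME is not given either. The design text attaches the sample codes to the media in the opposite way from the sample labels. Groups were taken from the medium in the sample labels, and under the design text's codes every medium difference would change sign. For the YEPME samples 1 label says diploid, where the other labels say mixture. All 5 measured P cell genes and all 8 measured M cell genes, which mark the mating types, lay above background on each array, although the M factor gene mfm1 did so narrowly on the YEPME replicate 1 array, at 5.66 against a background of 5.59.

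Yeast cells can take amino acids up from a rich medium or build them from central carbon intermediates, ammonium and sulfate. Each synthesis pathway is a chain of enzymes, several of which sit in mitochondria, and the first enzyme is often inhibited by the end product. In budding yeast, shortage of any one amino acid switches on genes of many pathways together through the transcription factor Gcn4, and in fission yeast Fil1 has that role. Methionine synthesis draws on sulfate, which is activated and reduced to sulfide, on homoserine activated by an acetyl group, and on a methyl group carried by folate.

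The comparison between media gave small differences for nearly all of these genes, and the replicate 1 pair differed from the other pairs. Within replicates 2 and 3, limma called met9 and met6, of methionine synthesis, and ser2, of serine synthesis, lower in YEPME (3 of 36, against 8.7% of all genes) and called 0 members higher (against 6.91%). In the replicate 1 pair 29 of the 36 genes were higher in YEPME, met6 and met9 among them, while 44.4% of all genes were. Over all 6 arrays limma with no block called 0 members in either direction (threshold: adjusted p under 0.05), as for 0% of all genes each way, and 0 members had an unadjusted p under 0.05, against 32 of all genes. A limma fit blocked on replicate number called 0 members as well (0% of all genes). In it 1 member had an unadjusted p under 0.05, against 317 of all genes. With replicate 1 set against replicates 2 and 3 as a block it called 0 members, against 0.76% (higher) and 1.31% (lower) of all genes. There 1 member had an unadjusted p under 0.05, against 478 of all genes. That member was ser2 in both blocked fits.

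Values are log2 RMA values, given in the order of replicates 1, 2 and 3, and a difference of 1 is a change of 2-fold. Levels of different genes come from different probes and are not set against each other. A pair difference is YEPME minus YEPD within 1 replicate number. The mean of the gap between replicates 2 and 3 within a medium ran from 0.0004 to 0.08 over the 36 genes, with a median of 0.03. The replicate 1 arrays stand apart from the other 4: they correlated with them at 0.976 to 0.981 over all probe sets, against 0.994 with each other and 0.998 to 0.999 among the other 4, and their deposited values hold more digits. For this reason each result is given with the replicate 1 pair beside the other pairs. In such mixtures of 2 strains, fewer cells of a strain and less RNA per cell cannot be told apart.

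**Figure D1:**
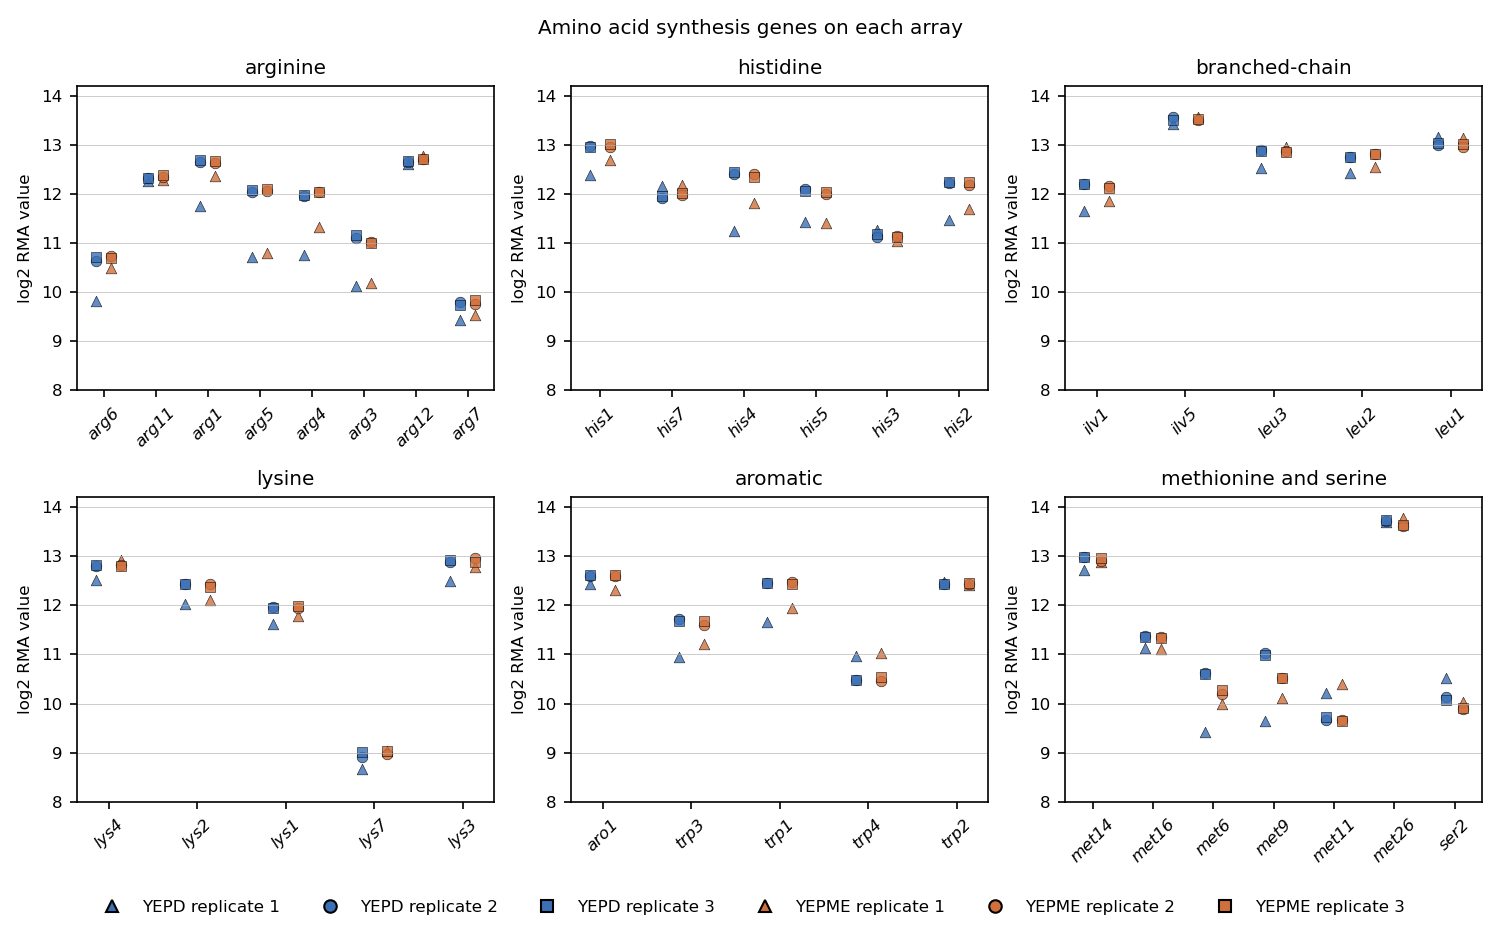
Log2 RMA values of the 36 genes on each array, 1 panel per pathway, with genes in pathway order along the horizontal axis. Blue points are YEPD and orange points YEPME, and triangles are replicate 1, circles replicate 2 and squares replicate 3. For most arginine and histidine genes the triangles lie below the other symbols, and for met6 and met9 the orange circles and squares lie below the blue ones.

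Methionine and serine genes held the 3 members that passed within replicates 2 and 3. The first steps here activate and reduce sulfate, and the middle ones supply homoserine as acetyl ester and the methyl group. The last step of methionine synthesis adds that methyl group. met9 (SPAC56F8.10), for a methylenetetrahydrofolate reductase that makes the methyl donor of methionine synthesis, had values of 9.64, 11.03 and 10.98 in YEPD and 10.12, 10.51 and 10.51 in YEPME. In replicates 2 and 3 both YEPME values lay below both YEPD values, while in replicate 1 the YEPME value was the higher one. Its pair differences were 0.48, -0.52 and -0.47. Within replicates 2 and 3 the difference was -0.50 ± 0.03 (SE, 2 arrays per medium; limma, adjusted p = 0.00355).

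met6 (SPBC56F2.11), for homoserine O-acetyltransferase, had values of 9.42, 10.61 and 10.60 in YEPD and 9.99, 10.18 and 10.28 in YEPME. As for met9, the YEPME values lay below the YEPD values in replicates 2 and 3 and above in replicate 1. The pair differences were 0.57, -0.43 and -0.32, and the difference within replicates 2 and 3 was -0.37 ± 0.04 (limma, adjusted p = 0.00886). Both genes departed between replicate 1 and the other replicates in a limma interaction test, by 0.98 ± 0.06 for met9 (adjusted p = 0.00107) and 0.94 ± 0.08 for met6 (adjusted p = 0.00177). That test has 1 array per medium in replicate 1 and takes its arrays to vary like the others.

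ser2 (SPBC3H7.07C), for phosphoserine phosphatase, the last step of serine synthesis, had values of 10.51, 10.13 and 10.08 in YEPD and 10.04, 9.88 and 9.92 in YEPME. All 3 YEPME values lay below all 3 YEPD values. The groups lay apart in this direction for 1 of the 36 members, against 2.94% of all genes. Its pair differences were -0.47, -0.25 and -0.16, the mean over the 3 pairs was -0.30 ± 0.15 (SE; limma with no block, adjusted p = 0.999), and the difference within replicates 2 and 3 was -0.21 ± 0.04 (adjusted p = 0.0257). With replicate 1 against the others as a block the adjusted p was 0.147, and the fit with a block for each replicate number gave 0.382.

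The calls of met9, met6 and ser2 within replicates 2 and 3 need both YEPD arrays. Without YEPD replicate 2 or without YEPD replicate 3 all were lost, as were most calls among all genes. The 3 differences kept their sign. They were -0.47, -0.37 and -0.18 without YEPD replicate 2, and -0.52, -0.38 and -0.23 without YEPD replicate 3. Without YEPME replicate 2 the call of ser2 was lost, at a difference of -0.19.

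The other methionine genes differed little between media in replicates 2 and 3. met14, for the kinase that completes sulfate activation, had values of 12.71, 12.99 and 12.99 in YEPD and 12.88, 12.90 and 12.96 in YEPME, with pair differences of 0.16, -0.09 and -0.03. met26, for methionine synthase, had values of 13.69, 13.71 and 13.73 in YEPD and 13.77, 13.61 and 13.64 in YEPME and pair differences of 0.09, -0.10 and -0.09; its difference within replicates 2 and 3 did not pass (adjusted p = 0.120). met16, for the reductase that acts on activated sulfate, differed by -0.03, -0.03 and -0.03 in the 3 pairs. met11, the other methylenetetrahydrofolate reductase gene, had values of 10.21, 9.66 and 9.72 in YEPD and 10.40, 9.67 and 9.65 in YEPME, and its media overlapped in replicates 2 and 3, unlike those of met9. In replicate 3 all 7 methionine and serine genes were lower in YEPME, in replicate 2 6 were, and in replicate 1 2 were, met16 and ser2. Of all genes 50.4%, 51.5% and 44.4% were higher in the pairs of replicates 3, 2 and 1. The median difference of the 7 within replicates 2 and 3 was -0.09, against 0.00 for all genes.

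**Figure D2:**
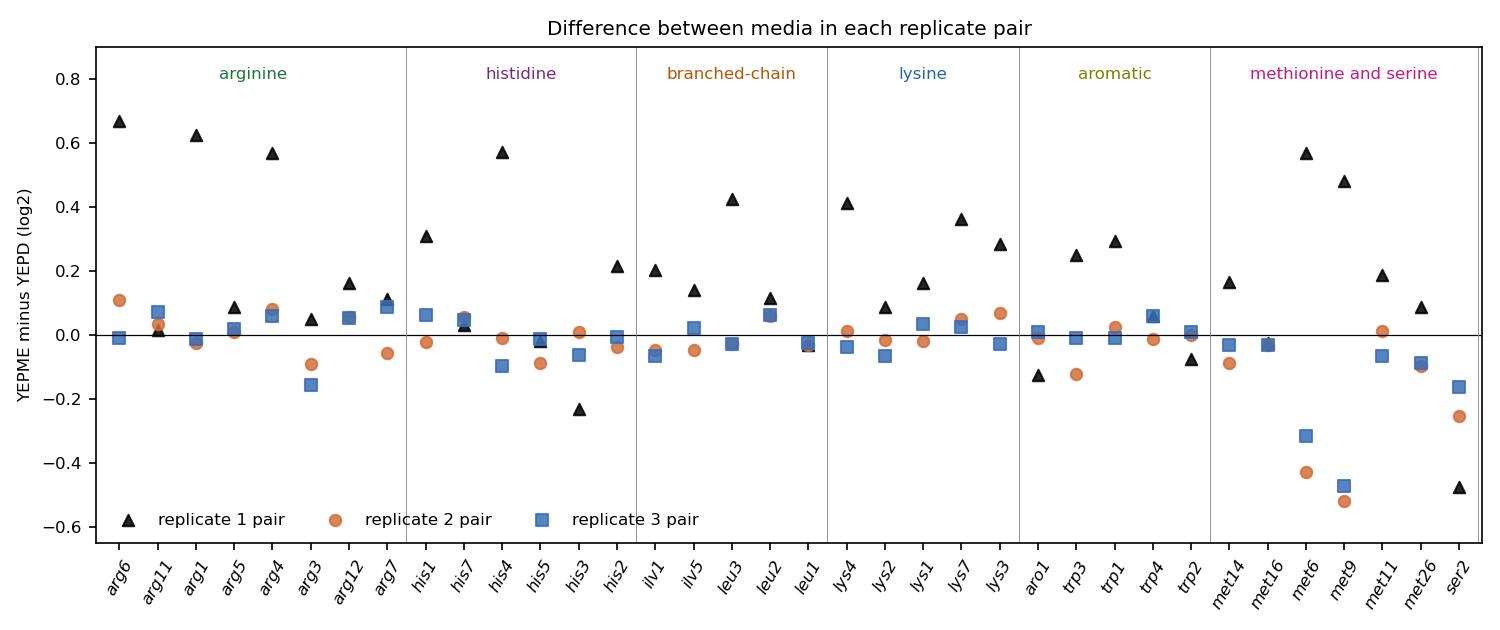
Difference between media (YEPME minus YEPD, log2) for each of the 36 genes in pathway order, with 1 point per replicate pair: triangles for replicate 1, circles for replicate 2 and squares for replicate 3. The circles and squares of met6 and met9 lie between -0.52 and -0.32 and those of ser2 at -0.25 and -0.16, those of the other 33 genes lie between -0.16 and 0.11, and the triangles reach 0.67 for arg6 and -0.47 for ser2.

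Arginine is made from glutamate by way of ornithine, to which carbamoyl phosphate is added. arg6, for acetylglutamate synthase at the head of the pathway, had values of 9.83, 10.64 and 10.72 in YEPD and 10.50, 10.75 and 10.71 in YEPME. The YEPD replicate 1 value was the lowest of the 6, and the pair differences were 0.67, 0.11 and -0.01. arg1, for acetylornithine aminotransferase, had values of 11.75, 12.66 and 12.69 in YEPD and 12.38, 12.63 and 12.68 in YEPME, with pair differences of 0.62, -0.03 and -0.01, and again the YEPD replicate 1 array was lowest. arg4, for the large subunit of carbamoyl-phosphate synthase, had values of 10.77, 11.96 and 11.99 in YEPD and 11.34, 12.04 and 12.05 in YEPME and pair differences of 0.57, 0.08 and 0.06.

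The small subunit of the same synthase followed another course. arg5 had values of 10.71, 12.05 and 12.09 in YEPD and 10.80, 12.05 and 12.10 in YEPME, so that both replicate 1 arrays were low to the same degree and the pair differences were 0.09, 0.01 and 0.02. arg3, for ornithine carbamoyltransferase, which uses the product of that synthase, was also low on both replicate 1 arrays (10.14 and 10.19, against 11.00 to 11.16 on the other 4). Within replicates 2 and 3 it differed by -0.12 ± 0.03 (adjusted p = 0.0783). The genes of the last enzymes varied little between the media. arg12, for argininosuccinate synthase, had values of 12.62, 12.65 and 12.67 in YEPD and 12.78, 12.71 and 12.72 in YEPME, and its YEPME values all lay above its YEPD values, as for 1 of the 36 members and 2.76% of all genes. Its pair differences of 0.16, 0.06 and 0.05 did not pass limma (adjusted p = 0.410 with replicate 1 as a block and 0.294 within replicates 2 and 3). arg7, for argininosuccinate lyase, had values of 9.44, 9.81 and 9.75 in YEPD and 9.55, 9.75 and 9.83 in YEPME. arg11, for the joined acetylglutamate kinase and acetylglutamyl-phosphate reductase, stayed between 12.27 and 12.39 on all 6 arrays. In replicate 1 all 8 arginine genes were higher in YEPME, by 0.01 to 0.67, against 44.4% of all genes. In each of the replicate 2 and 3 pairs 5 of 8 were higher, against 51.5% and 50.4%.

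Histidine genes also varied from step to step. The pathway starts from ATP and phosphoribosyl pyrophosphate. his1, for its first enzyme, ATP phosphoribosyltransferase, had values of 12.39, 12.99 and 12.96 in YEPD and 12.70, 12.97 and 13.02 in YEPME and pair differences of 0.31, -0.02 and 0.06. his4, for imidazole glycerol phosphate synthase, had values of 11.25, 12.41 and 12.45 in YEPD and 11.82, 12.40 and 12.35 in YEPME, and its pair differences were 0.57, -0.01 and -0.10. his2, for histidinol dehydrogenase, the last step, had values of 11.47, 12.23 and 12.24 in YEPD and 11.69, 12.19 and 12.24 in YEPME. In these 3 genes the YEPD replicate 1 array was lowest, the YEPME replicate 1 array next, and the other 4 arrays lay close together. his5, for imidazoleglycerol-phosphate dehydratase, was low on both replicate 1 arrays and differed by -0.02, -0.09 and -0.01 in the pairs. his3, for the aminotransferase of the pathway, had values of 11.27, 11.13 and 11.19 in YEPD and 11.04, 11.14 and 11.13 in YEPME, and of the 6 histidine genes it alone passed the interaction test in the negative direction (-0.20 ± 0.06, adjusted p = 0.0484). his7, for the joined cyclohydrolase and pyrophosphohydrolase, differed by 0.03, 0.06 and 0.05.

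Leucine, isoleucine and valine share their early enzymes, and leucine then branches off. ilv1, for the catalytic subunit of acetolactate synthase, had values of 11.66, 12.21 and 12.20 in YEPD and 11.86, 12.17 and 12.13 in YEPME, with pair differences of 0.20, -0.05 and -0.07. ilv5, for acetohydroxyacid reductoisomerase, had values of 13.44, 13.57 and 13.51 in YEPD and 13.57, 13.52 and 13.54 in YEPME, and its media overlapped. leu3, for isopropylmalate synthase, the first step of the leucine branch, had values of 12.54, 12.90 and 12.87 in YEPD and 12.96, 12.87 and 12.85 in YEPME. Only its YEPD replicate 1 value lay apart from the other 5, and its pair differences were 0.43, -0.03 and -0.03. The later leucine genes leu2, for isopropylmalate dehydratase, and leu1, for isopropylmalate dehydrogenase, differed by 0.12, 0.06 and 0.06 and by -0.03, -0.03 and -0.02 in the 3 pairs.

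Lysine synthesis in fungi runs through aminoadipate. lys4, for homocitrate synthase at its head, had values of 12.51, 12.80 and 12.83 in YEPD and 12.92, 12.81 and 12.79 in YEPME, and as for leu3 the YEPD replicate 1 value was the one apart. lys3, for saccharopine dehydrogenase at its end, had values of 12.50, 12.88 and 12.92 in YEPD and 12.79, 12.95 and 12.89 in YEPME and pair differences of 0.28, 0.07 and -0.03. lys7, for the phosphopantetheinyl transferase that activates aminoadipate reductase, had values of 8.67, 8.91 and 9.01 in YEPD and 9.03, 8.96 and 9.03 in YEPME and pair differences of 0.36, 0.05 and 0.02. These 3 genes were higher in YEPME in replicate 1, whereas their pair 2 and pair 3 differences lay between -0.04 and 0.07. lys1, for aminoadipate reductase, and lys2, for homoaconitase, differed by 0.16, -0.02 and 0.04 and by 0.09, -0.02 and -0.07.

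The aromatic genes comprise aro1, for the multi-domain protein of the shikimate pathway, and 4 genes that lead from chorismate to tryptophan. aro1 had values of 12.44, 12.60 and 12.61 in YEPD and 12.31, 12.59 and 12.62 in YEPME. trp3 and trp1, for the components of anthranilate synthase, had values of 10.96, 11.72 and 11.68 in YEPD and 11.21, 11.60 and 11.67 in YEPME and of 11.66, 12.45 and 12.45 in YEPD and 11.95, 12.48 and 12.44 in YEPME. Both were lowest on the YEPD replicate 1 array, with pair differences of 0.25, -0.12 and -0.01 for trp3 and 0.29, 0.02 and -0.01 for trp1. trp4, for the next enzyme, anthranilate phosphoribosyltransferase, had values of 10.98, 10.47 and 10.49 in YEPD and 11.03, 10.46 and 10.55 in YEPME, so that it was higher on both replicate 1 arrays, opposite to trp3 and trp1. trp2, for tryptophan synthase, stayed between 12.41 and 12.48.

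Over the pathways, the median difference of the 36 genes was 0.16 in the replicate 1 pair, against -0.04 for all genes, and -0.02 and -0.01 in the replicate 2 and 3 pairs, against 0.00 and 0.00. In each of the replicate 2 and 3 pairs 14 of the 36 were higher, against 51.5% and 50.4% of all genes. The median absolute difference of the 36 within replicates 2 and 3 was 0.03, against 0.07 for all genes, and 0.18 in replicate 1, against 0.20. The 36 had brighter probe sets, with array medians of 11.64 to 12.22 against 10.22 to 10.31 for all genes. This comparison was not matched for signal. For 12 genes the replicate 1 difference was positive and both others negative, and the share of all genes with that pattern is not given here. The interaction test called 17 of the 36 members with a replicate 1 difference above that of replicates 2 and 3, against 19% of all genes, and 2 below, against 27.4%. The 17 were arg6, arg1, arg4, his1, his4, his2, ilv1, leu3, lys4, lys7, lys3, trp3, trp1, met14, met6, met9 and met11, and the 2 were his3 and ser2. Without YEPD replicate 2 or YEPD replicate 3 the test called fewer members in each direction. The share of all genes in those fits is not given here, so whether that fall is particular to the members cannot be told. The 1 pair behind the replicate 1 difference has no replicate of its own. The labels do not say what sets replicate 1 apart.

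Among the mating type markers, most M cell genes departed in the same pair. In replicate 1 the M cell genes had a median difference of -0.97, against 0.098 over the other 4 arrays. The same interaction test called 7 of 8 with a replicate 1 difference below, against 27.4% of all genes, and 0 above, against 19%. The M factor precursor genes mfm2 and mfm1 differed in replicate 1 by -2.41 and -2.06. The summed level of the 8 M cell genes, as log2, was 13.82 in YEPD and 12.35 in YEPME in replicate 1, and 11.96 to 12.20 on the other 4 arrays. On the YEPD replicate 1 array mfm2, at 13.10, held most of that sum. The 5 P cell genes had a median difference of 0.24 in replicate 1 and of 0.36 over the other 4 arrays. Over those 4 arrays limma called 4 of 5 higher in YEPME, against 6.91% of all genes. The interaction test called 1 of 5 below and 0 above, against the same 27.4% and 19%. The summed level of the 5 P cell genes was 12.63 in YEPD and 12.68 in YEPME in replicate 1, against 12.40 to 12.66 elsewhere. In replicate 1 sxa1, at 12.27 in YEPD and 12.29 in YEPME, held most of this sum. Of the 5 only map1 was lower in YEPME in that pair, by -0.43. The part of the markers in the members' differences was not tested.

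**Figure D3:**
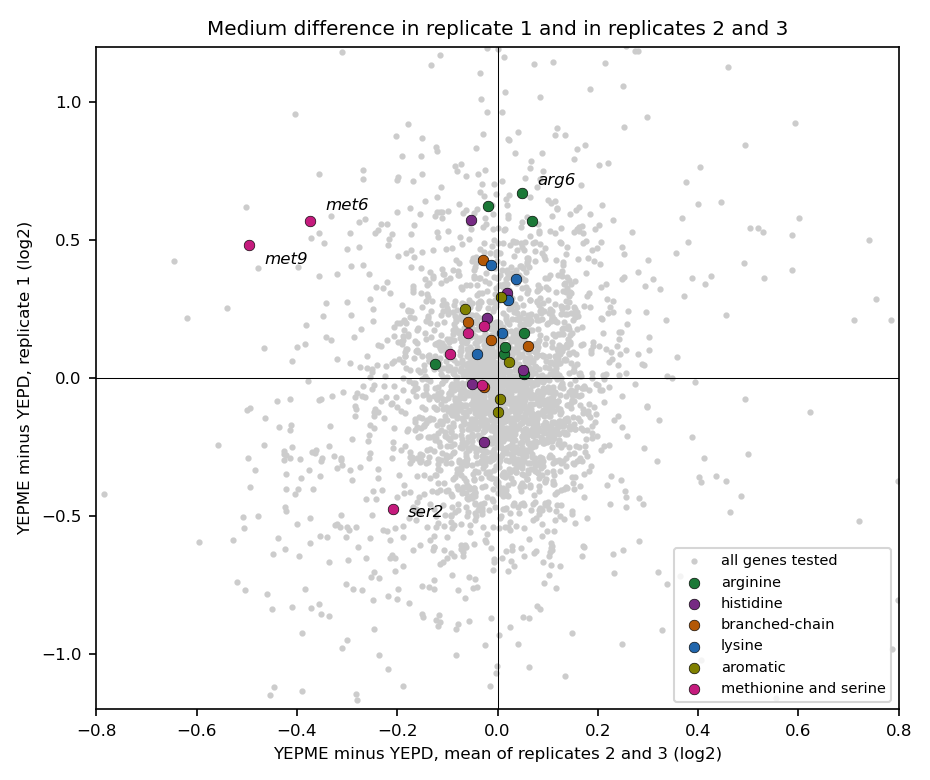
Difference between media (YEPME minus YEPD, log2) in the replicate 1 pair on the vertical axis against the mean of the replicate 2 and 3 pairs on the horizontal axis, for the 36 genes coloured by pathway and for all genes tested in grey. Most of the 36 spread along the vertical axis near 0 on the horizontal one, met6 and met9 lie at the upper left, ser2 lies at the lower left, and 62 genes fall outside the axes.

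The level of these genes, taken over both media, also differed between replicate 1 and replicates 2 and 3. Background differed as well, at 5.60 (YEPD) and 5.59 (YEPME) on the replicate 1 arrays against 4.78 to 4.81 on the other 4. The part of the array scale in the level differences was not tested. With the medium in the model, limma called 21 of the 36 lower in replicate 1, against 36% of all genes, and 5 higher, against 35%. The median of the 36 was -0.27, against 0.00 for all genes. Both replicate 1 values lay below the other 4 for 23 members, against 38.3% of all genes, and above them for 4, against 38.5%. arg5 differed most, by -1.32 ± 0.05 (SE, adjusted p = 5.66e-05), and was the 1 member at least 2-fold lower, against 8.15% of all genes, while 0 were at least 2-fold higher, against 7.01%. arg4 differed by -0.96 ± 0.12, arg3 by -0.91 ± 0.06, met9 by -0.88 ± 0.22 and his4 by -0.87 ± 0.15 (adjusted p = 0.00144, 0.000194, 0.0173 and 0.00412). Of the 8 arginine genes 6 were lower and 0 higher, and of the 6 histidine genes 4 were lower and his7 was higher, by 0.20. For lysine and for the aromatic genes 3 of 5 were lower each, for the branched-chain genes 2 of 5 and for methionine and serine 3 of 7.

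The 5 members higher in replicate 1 were met11 (0.63 ± 0.07), trp4 (0.51 ± 0.05), ser2 (0.27 ± 0.07), his7 (0.20 ± 0.04) and leu1 (0.15 ± 0.05). Of the markers, 4 of 8 M cell genes were called higher in replicate 1 and 0 lower. Of 5 P cell genes 1 was called higher and 2 lower. Among all genes 35% were called higher and 36% lower. The paired methylenetetrahydrofolate reductase genes met9 and met11 differed in opposite directions. The count of 5 went to 3, against 33.5% of all genes, when the S. pombe probe sets were quantile normalized, which turned leu1 to -0.10. It went to 2, 3 and 3 without YEPD replicate 2, YEPD replicate 3 or YEPME replicate 2. Of all genes 29.1%, 29.1% and 30.8% were called higher in those 3 fits. The count of 21 lower went to 27 with quantile normalization, against 35.3% of all genes, which added arg11, arg12, ilv5, trp2, met14 and met26. Of these, arg12, trp2 and met26 had turned sign, to -0.14, -0.13 and -0.16, from values that did not pass. The sign also turned for lys7, and with arrays centred on their median for arg11 and ilv5, with no call before or after. Without YEPD replicate 1, lys4 turned to 0.11 and passed (adjusted p = 0.0434).

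**Figure D4:**
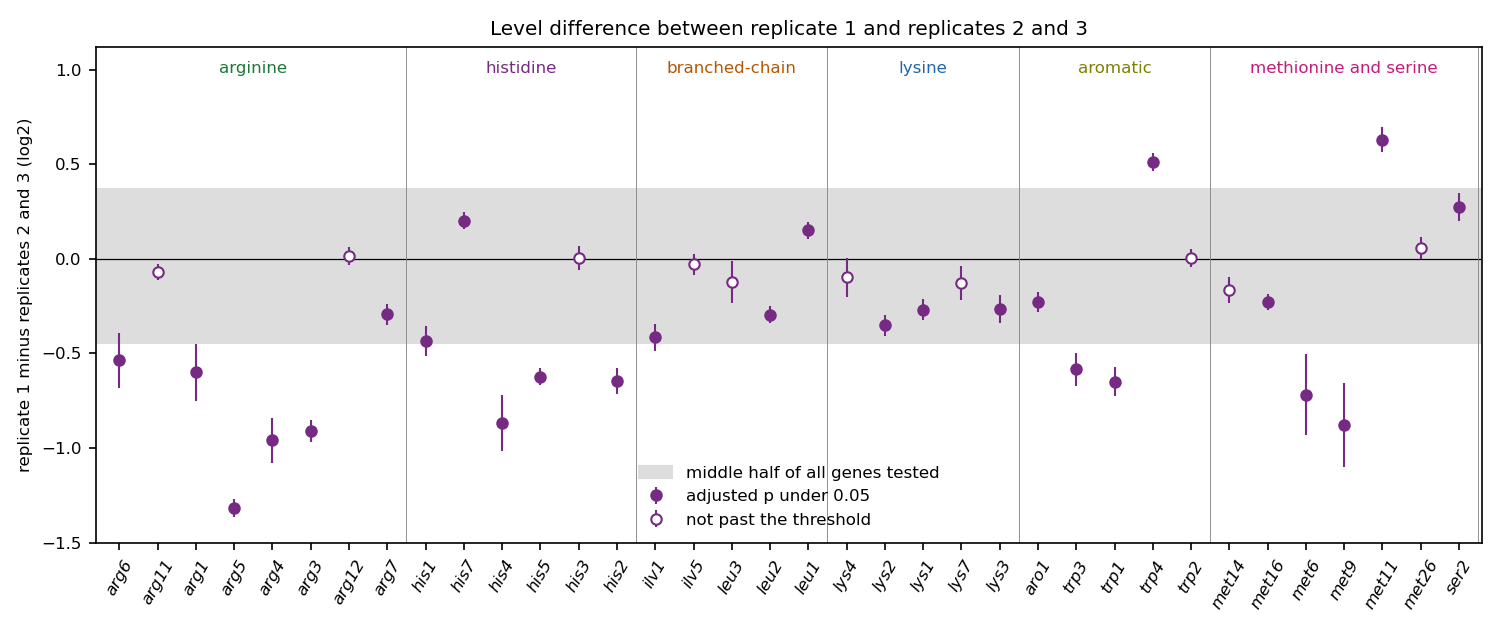
Level difference between replicate 1 and replicates 2 and 3 (log2, medium in the model) for the 36 genes in pathway order, with bars of 1 standard error. Filled points passed an adjusted p under 0.05 and open points did not, and the grey band runs from the lower to the upper quartile of all genes tested, -0.45 to 0.37. arg5 lies lowest, at -1.32, and met11 highest, at 0.63.

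Members that lie close together in the genome had level differences of unlike size, although met6 and arg5 were both called lower in replicate 1. In the reference annotation arg11 and arg3 lie next to each other on chromosome I, and their level differences were -0.07 and -0.91. On chromosome II ilv5 and met6 are adjacent and 1 protein-coding gene, alg5, lies between met6 and arg5. Their level differences were -0.03, -0.72 and -1.32, and their differences between media within replicates 2 and 3 were -0.01, -0.37 and 0.01.

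Other genes of amino acid metabolism were taken from 3 lists. Of 16 measured enzymes of amino acid synthesis with other names, 0 passed over all 6 arrays with no block (0% of all genes) or with replicate 1 as a block (0.76% of all genes higher and 1.31% lower), and within replicates 2 and 3 limma called 6 lower, against 8.7% of all genes, and 0 higher, against 6.91%. sam1, for the synthetase that turns methionine into S-adenosylmethionine, differed by -0.24 ± 0.03 (adjusted p = 0.0131). cys2 differed by -0.22 ± 0.04, sua1, for the sulfurylase that starts sulfate activation, by -0.18 ± 0.04, and sir1, for a sulfite reductase subunit, by -0.16 ± 0.04 (adjusted p = 0.0215, 0.0327 and 0.0491). In the replicate 1 pair sam1, cys2 and sua1 differed by 0.53, 0.48 and 0.08, and sir1 by -0.61. The branched-chain aminotransferase gene eca39 (0.12 ± 0.03) and the asparagine synthetase gene asn1 (-0.07 ± 0.03) did not pass. The list as written also held str3, which in S. pombe encodes a transporter of the siderophore-iron family and no synthesis enzyme, and was left out here for that reason.

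Of 7 measured genes of arginine, proline and glycine breakdown limma called 1 higher and 1 lower within replicates 2 and 3, against the same 6.91% and 8.7% of all genes. Of these, put4, for a proline permease, rose by 0.78 ± 0.04 within replicates 2 and 3 (adjusted p = 0.00102), and gcv1, for a subunit of the glycine cleavage system, differed by -0.26 ± 0.03 (adjusted p = 0.00919). In replicate 1 they differed by 0.21 and 0.04, and car2 (-0.01 ± 0.03) and gcv2 (-0.07 ± 0.04) did not pass within replicates 2 and 3. The list for the general amino acid control and the TOR kinase pathway held 16 measured genes. Within replicates 2 and 3, 0 of the 16 fell, against 8.7% of all genes, and 3 rose, against 6.91%. They were hri2 and hri1, for kinases of the translation factor eIF2, by 0.25 ± 0.03 and 0.15 ± 0.03, and gtr2, for a GTPase upstream of TOR, by 0.15 ± 0.03 (adjusted p = 0.0120, 0.0470 and 0.0407). In replicate 1 these 3 differed by -0.62, 0.34 and 0.22. cpc2 (-0.04 ± 0.03) and tif211 (-0.06 ± 0.04), for eIF2 alpha, did not pass. Of the mating type markers, 4 of 5 P cell genes and 2 of 8 M cell genes rose within the same 4 arrays, again against 6.91% of all genes, and 0 fell.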

How the data were processed

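Biotin-labelled cRNA was hybridised to Affymetrix arrays. The values deposited by the authors are log2 signals of probe sets, for which the submitters' processing notes name RMA and Partek; no version, setting or joint normalization of the arrays is stated there. RMA includes background correction and quantile normalization, so that each array's values depend on the arrays it was normalized with. Genes were named through the platform annotation and RefSeq ASM294v3, used for names and neighbours.

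The difference between media was tested with limma 3.58.1 (lmFit and eBayes, two-sided, Benjamini-Hochberg over the 2896 genes, adjusted p under 0.05) on all 6 arrays with no block. The few arrays limit the precision, and p-values measure the spread between arrays, which may be technical. Members and gene lists were chosen with earlier results of these data known, so no test was made over them. Values on each array are given for members past the interaction test, past 0.3 within replicates 2 and 3, or past 1 between replicate 1 and the others, at most 6 per pathway, plus the highest and lowest value of each pathway; of each list, up to 4 members past the test and 2 not past it are named.

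The replicate numbers were taken as pairs. Deviations from the medium's mean correlated over genes at 0.853, 0.835 and 0.836 for numbers 1, 2 and 3, against 0.816 for unlike numbers 2 and 3. Because replicate 1 weighs on each mean, these values cannot show how numbers 2 and 3 pair. Over all probe sets YEPD replicate 2 correlated at 0.9983 with YEPME replicate 2 and at 0.9980 with YEPME replicate 3. For YEPD replicate 3 both correlations were 0.9981. Other fits were those with the replicate number or replicate 1 as a block, within replicates 2 and 3, other scalings, a filter on dim genes, probe set means, other eBayes settings and each array left out. The code was tested on simulated data. A list of aminoacyl-tRNA synthetases needed product names and was not analysed here.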

Additional observations from a re-analysis of the deposited data

Results flagged for a closer look

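The medium difference of 19 of the 36 genes departed between the replicate 1 pair and the mean of the replicate 2 and 3 pairs in the limma interaction test, which is what singled them out. For the arginine genes the replicate 1 difference minus that of the other pairs was 0.62 for arg6, 0.64 for arg1 and 0.50 for arg4. For histidine it was 0.29 for his1, 0.62 for his4, 0.24 for his2 and -0.20 for his3, and for the branched-chain genes 0.26 for ilv1 and 0.46 for leu3. Lysine gave 0.42 for lys4, 0.32 for lys7 and 0.26 for lys3, and the tryptophan genes 0.32 for trp3 and 0.29 for trp1. For methionine and serine it was 0.94 for met6, 0.98 for met9, 0.22 for met14, 0.22 for met11 and -0.27 for ser2. For met6 and met9 the 2 sides had opposite signs and each exceeded 0.3 in size. Replicate 1 is 1 pair of arrays, and of all genes 46.4% departed in one direction or the other, so departures were common. Groups of 3 arrays were too small for a check on single outlying arrays.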

How the results depend on the processing

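With the replicate number as a block, 0 members were called higher and 0 lower, as without it. Within replicates 2 and 3, 3 members were called lower, also with centred arrays (3) and quantile normalization (3), and 5 with the trend and robust eBayes setting, which added arg3 and met26; the cause was not tested. Leaving out 1 array, alone or with replicate 1 as a block, gave 0 to 3 members lower and 0 higher. Among all genes it gave 0 to 252 lower and 0 to 200 higher. The median difference of the members, 0.04 over all 6 arrays and -0.02 within replicates 2 and 3, ran from -0.072 to 0.11 when 1 array was left out. With 1 array left out, members higher in replicate 1 numbered 2 to 7 and members lower 18 to 25. Those with the replicate 1 difference above numbered 8 to 17 and those below 0 to 1. Quantile normalization gave 3 members higher and 27 lower in replicate 1, against 33.5% and 35.3% of all genes. It turned leu1 to -0.10, arg12 to -0.14, trp2 to -0.13 and met26 to -0.16, and left 1 departure below. The level difference of lys4 ran from -0.31 without YEPME replicate 1 to 0.11 without YEPD replicate 1. No member was called higher in YEPME in any of these fits. All members lay above background on all 6 arrays.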

Other observations

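Of the 16 measured synthesis enzymes with other names, limma called 4 higher and 8 lower in level in replicate 1 than in replicates 2 and 3, and of the 7 genes of amino acid breakdown 1 higher and 3 lower, against 35% (higher) and 36% (lower) of all genes. A call in this comparison was therefore common. gdh1, for the glutamate dehydrogenase that uses NADPH, was higher in replicate 1 by 1.77 ± 0.06 (SE; limma, adjusted p = 4.45e-05), with 13.52 and 13.45 in replicate 1 of YEPD and YEPME, against 11.66 to 11.78 elsewhere. gln1, for glutamine synthetase, differed by -1.07 ± 0.12 (adjusted p = 0.000938) and glt1, for glutamate synthase, by -0.69 ± 0.14 (adjusted p = 0.00725). gdh2, for the glutamate dehydrogenase that uses NAD, differed by 0.57 ± 0.09 (adjusted p = 0.00315). car1, for arginase, which breaks arginine down, was higher in replicate 1 by 1.17 ± 0.17 (adjusted p = 0.00235), while car2, for the next enzyme of that breakdown, ornithine aminotransferase, differed by -0.05 ± 0.04 and did not pass (adjusted p = 0.375). These 6 genes were picked after their values were seen.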
